A study of Homo sapiens with 24 samples.

Results

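Box C/D small nucleolar RNAs (snoRNAs) are short RNAs of the nucleolus that carry the conserved C and D boxes and pair with other RNAs, most of them ribosomal. They were taken here as gene rows whose symbol begins with SNORD and a number and whose counts summed to at least 100 over the 24 libraries. Of 61853 rows, 314 had such a symbol, 159 of these had any count and 100 reached the minimum. In 2 cases a row held the same counts as another row of the set, and 1 of each pair was dropped. This left 98 rows with 97 symbols, since SNORD22 has 2 rows. The rows nearest the threshold were SNORD105B with 100 summed counts inside it and SNORD1C with 93.83 outside it.

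The cells were 293T, a human embryonic kidney line, in which DIS3 had been knocked down with the hairpin DIS3-sh2 in every group. DIS3, a catalytic subunit of the RNA exosome, was put back as the D146N mutant, which alters its endonuclease domain, or as the wild-type protein (WT). A sucrose density gradient, from which cytoplasmic RNA was taken in fractions 3, 4, 7 and 8, separates particles by size and density, and the RNA was sequenced after removal of most ribosomal RNA. The 8 groups were D146N fractions 3, 4, 7 and 8 and WT fractions 3, 4, 7 and 8, with 3 libraries each. The labels do not say which end of the gradient was numbered first, or whether replicates were separate cultures, so p-values measure the spread between these libraries. Cells without the hairpin and unfractionated RNA were not analysed here.

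A box C/D snoRNA works as a particle with the methyltransferase fibrillarin (FBL) and the proteins NOP56, NOP58 and SNU13. Most members guide 2'-O-methylation of ribosomal or spliceosomal RNA, while a few, U3 (SNORD3), U8 (SNORD118), U13 (SNORD13) and U14 (SNORD14), act in the cleavage, folding or other modification of pre-ribosomal RNA. In humans most are cut out of introns of other genes, and their ends are trimmed by exonucleases, whereas U3, U8 and U13 are made from promoters of their own. Mature snoRNAs are known mainly from the nucleolus, and these libraries were made from RNA labelled cytoplasmic.

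Library totals lay between 21.2 and 33 M counts. DIS3 itself had 86.7 to 114.5 CPM (counts scaled to the library total and a common size) in D146N fractions 7 and 8 and 7.79 to 9.63 CPM in D146N fractions 3 and 4, against 4.54 to 6.28 CPM in WT fractions 7 and 8, with 91.4 to 112.2 CPM in WT fractions 3 and 4. Of the markers, VIM and KRT8 had counts in all 24 libraries while LHX1, a gene of the developing kidney, was at 0 in 9, and the T-cell gene CD3E was at 0 in 24. The liver gene ALB had 4.57 to 142 CPM. WT fraction 8 replicate 3 stood apart from the other WT fraction 8 libraries. Its trimmed mean of M values (TMM) factor was 0.531, the highest of its group, where the lowest was 0.371.

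Both CPM and TMM scales are used throughout, because they differ in what is held constant. CPM, or counts per 1e6 library counts, divides by the library total. TMM factors align the typical gene between libraries, and they averaged 2.81 and 2.76 in D146N fractions 7 and 8 and 0.366 in both D146N fractions 3 and 4, against 0.365 and 0.426 in WT fractions 7 and 8 and 2.51 in WT fraction 3 as in fraction 4. A TMM fold change thus says how a member moved against the typical gene, and its sign need not be that of a ratio of CPM values. Values that need no scaling, such as a member as a percentage of SNORD3A in the same library or the distance of a member from the gene that contains it, are given beside them.

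U3 made up almost all of the signal. SNORD3A alone held 87.75% of the counts of the 98 members, and the 5 U3 genes together held 96.69%. The U3 genes lie on chromosome 17 of GRCh38.p14, each annotated at 217 bases, with SNORD3A at 19188016 to 19188232. Reads may match several of these near-identical copies, which would make their sum firmer than the split between them. Per kilobase, SNORD3A averaged 14666 CPM over the 24 libraries, SNORD3B-1 524 and SNORD3C 456. Outside U3 the highest were SNORD49B at 126, SNORD13 at 106.8 and SNORD96A at 97.2 CPM per kilobase. Only 23 members averaged at least 1 CPM, 28 had at least 1 library at 0, and the median member had 9.31 counts in its median library, so the smaller members carry wide counting error.

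SNORD3A sat at opposite ends of the sampled fractions in the 2 genotypes. It had 4878, 5054 and 5252 CPM in D146N fraction 7 and 5077, 4848 and 4033 CPM in D146N fraction 8, against 701, 648 and 712 CPM in D146N fraction 3 and 709, 636 and 709 CPM in D146N fraction 4. In WT it had 447, 464 and 528 CPM in fraction 7 and 515, 518 and 642 CPM in fraction 8, against 7335, 6299 and 6699 CPM in fraction 3 and 6471, 6401 and 6804 CPM in fraction 4. Every D146N library of fractions 7 and 8 was above every D146N library of fractions 3 and 4, and the order was turned round in WT. Typical genes did the same on this scale: of the 13647 genes of at least 1 mean CPM, the libraries of fractions 7 and 8 lay wholly above those of 3 and 4 for 92.3% in D146N and wholly below for 84.4% in WT.

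After TMM the SNORD3A difference was small beside that of other members. In D146N, fractions 7 and 8 against 3 and 4 gave -0.10 on the log2 scale (SE 0.07, adjusted p = 0.22, edgeR quasi-likelihood test with Benjamini-Hochberg adjustment). In WT the same comparison gave -1.01 (SE 0.07, adjusted p = 1.2e-14). On library totals these were 2.82 in D146N and -3.69 in WT. SNORD3A therefore fell relative to the typical gene in WT and did not pass the test in D146N.

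As a share of all library counts, the 98 members took 0.557% ± 0.0198 and 0.513% ± 0.0598 in D146N fractions 7 and 8, against 0.0753% ± 0.00542 and 0.0859% ± 0.0102 in WT fractions 7 and 8 (SD, n = 3 each). In fractions 3 and 4 the share was 0.0909% ± 0.00372 and 0.0907% ± 0.00558 in D146N, against 0.745% ± 0.0563 and 0.724% ± 0.0225 in WT. Without U3 the share varied less. The 93 other members took 0.0107% and 0.0101% in D146N fractions 7 and 8, against 0.0113% and 0.0127% in WT fractions 7 and 8. In fractions 3 and 4 they took 0.00872% and 0.00841% in D146N, against 0.0127% and 0.0126% in WT. For each fraction, D146N and WT libraries of the full set did not overlap, and the exact two-sided permutation test gave p = 0.1, the smallest that 3 against 3 allows. Without U3 it also gave 0.1 in fractions 3, 4 and 8, all lower in D146N, and 0.3 in fraction 7.

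**Figure D1:**
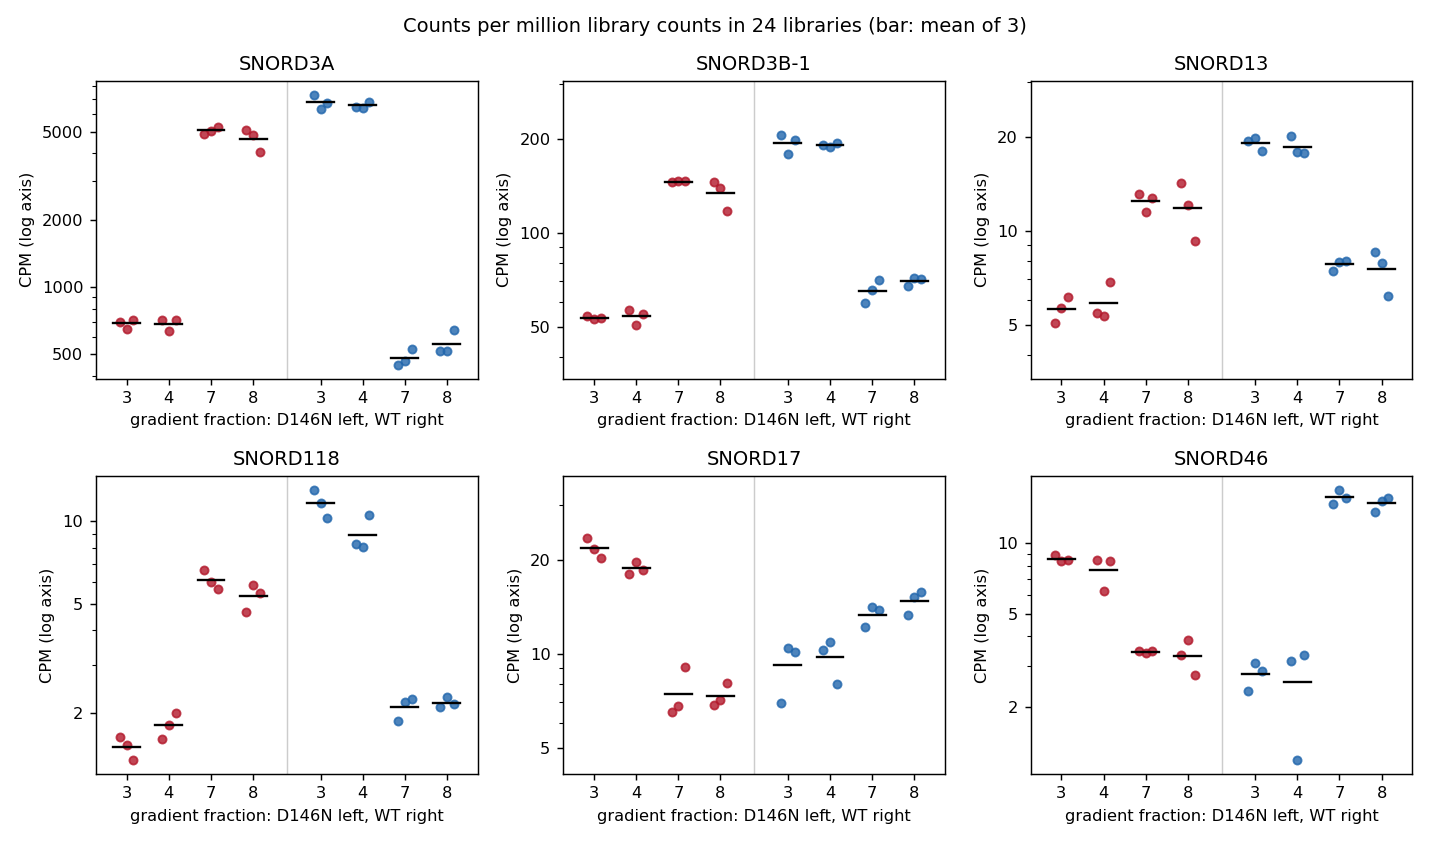
CPM on a log axis (vertical) of 6 members in each library, by gradient fraction (horizontal), with D146N in red on the left and WT in blue on the right of each panel; points are libraries and bars the means of 3. SNORD3A, SNORD3B-1, SNORD13 and SNORD118 are high in D146N fractions 7 and 8 and WT fractions 3 and 4, while SNORD17 and SNORD46 are high in D146N fractions 3 and 4 and WT fractions 7 and 8.

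The other independently transcribed members followed SNORD3A in CPM but less steeply. SNORD13, which directs acetylation of 18S ribosomal RNA, had 13.1, 11.5 and 12.7 CPM in D146N fraction 7 and 14.2, 12.1 and 9.26 CPM in D146N fraction 8, against 5.05, 5.65 and 6.14 CPM in D146N fraction 3 and 5.46, 5.34 and 6.83 CPM in D146N fraction 4. In WT it had 7.46, 7.95 and 8.03 CPM in fraction 7 and 8.56, 7.86 and 6.17 CPM in fraction 8, against 19.4, 19.8 and 18.1 CPM in fraction 3 and 20.1, 17.9 and 17.8 CPM in fraction 4. The 6 libraries on each side did not overlap in either genotype. Relative to the typical gene SNORD13 fell in fractions 7 and 8 of D146N (log2 fold change -1.84, SE 0.12, edgeR adjusted p = 3.6e-14) and rose in those of WT (1.40, SE 0.11, adjusted p = 2.3e-12), and both signs turn on library totals (1.08 in D146N and -1.30 in WT).

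SNORD118, the U8 RNA needed for maturation of 5.8S and 28S ribosomal RNA, had 6.64, 6.01 and 5.65 CPM in D146N fraction 7 and 4.67, 5.86 and 5.46 CPM in D146N fraction 8, against 1.64, 1.53 and 1.35 CPM in D146N fraction 3 and 1.61, 1.82 and 2.01 CPM in D146N fraction 4. In WT it had 1.87, 2.19 and 2.25 CPM in fraction 7 and 2.1, 2.28 and 2.15 CPM in fraction 8, against 13, 11.7 and 10.3 CPM in fraction 3 and 8.27, 8.01 and 10.5 CPM in fraction 4. Its high and low groups were those of SNORD3A, with no overlap of libraries in CPM. After TMM it was -1.13 in D146N (SE 0.13, edgeR adjusted p = 4.4e-09) and 0.43 in WT (SE 0.12, adjusted p = 0.0018), and on library totals 1.79 in D146N and -2.25 in WT. Without the filter on low counts the WT value was 0.26 and was not called. The annotated span of TMEM107 holds SNORD118, but the 2 rows differed: TMEM107 stood at -2.39 in D146N and 2.70 in WT after TMM.

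The rows of the U3 copies did not move alike. In WT, fractions 7 and 8 against 3 and 4 gave -1.01 for SNORD3A, 0.06 for SNORD3C (edgeR adjusted p = 0.48), 0.26 for SNORD3D, 1.18 for SNORD3B-1 and 1.91 for SNORD3B-2 after TMM. SNORD3B-1 counts were 2.89% of SNORD3A counts in D146N fractions 7 and 8 and 7.84% in D146N fractions 3 and 4, against 13.1% in WT fractions 7 and 8, with 2.90% in WT fractions 3 and 4. The range over libraries was 11.1% to 14.2% in WT fractions 7 and 8, with 2.81% to 2.96% in WT fractions 3 and 4. SNORD3D lost its call without the filter on low counts (0.10) and in 10 of the fits that left out 1 library (0.11 to 0.14). How reads were shared out between the copies was not tested.

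The remaining members, most of them intron-encoded, fell on both sides in CPM. Of the 78 tested members other than U3, SNORD13 and SNORD118, fractions 7 and 8 lay wholly above 3 and 4 for 25 in D146N (81.1% of all genes tested) and wholly below for 8 (2.90%). In WT they lay wholly below for 16 (73.5%) and wholly above for 18 (5.31%). SNORD46, a guide for methylation of 28S ribosomal RNA, was opposite to SNORD3A in both genotypes. It had 3.45, 3.39 and 3.47 CPM in D146N fraction 7 and 3.33, 3.85 and 2.73 CPM in D146N fraction 8, against 8.92, 8.37 and 8.47 CPM in D146N fraction 3 and 8.5, 6.24 and 8.38 CPM in D146N fraction 4. In WT it had 14.7, 16.9 and 15.6 CPM in fraction 7 and 13.6, 15.2 and 15.6 CPM in fraction 8, against 2.34, 3.08 and 2.83 CPM in fraction 3 and 3.13, 1.18 and 3.32 CPM in fraction 4. Neither genotype had overlapping libraries, and the high side was the one where SNORD3A was low.

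The change in SNORD46 kept its direction on both scales. The log2 fold change of fractions 7 and 8 against 3 and 4 was -4.20 in D146N after TMM (SE 0.14, edgeR adjusted p = 2.0e-19) and -1.27 on library totals, and 5.20 in WT after TMM (SE 0.14, adjusted p = 9.2e-22) and 2.52 on library totals. As a percentage of SNORD3A counts, SNORD46 was at 0.0695% in D146N fractions 7 and 8 and 1.19% in D146N fractions 3 and 4, against 2.94% in WT fractions 7 and 8, with 0.0400% in WT fractions 3 and 4.

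SNORD17, the longest member at 237 bases and a guide inside SNX5, had 6.52, 6.79 and 9.06 CPM in D146N fraction 7 and 6.86, 7.13 and 8.04 CPM in D146N fraction 8, against 23.5, 21.7 and 20.3 CPM in D146N fraction 3 and 18.1, 19.7 and 18.6 CPM in D146N fraction 4. In WT it had 12.2, 14.1 and 13.8 CPM in fraction 7 and 13.4, 15.2 and 15.8 CPM in fraction 8, against 6.97, 10.4 and 10.2 CPM in fraction 3 and 10.3, 10.9 and 8.00 CPM in fraction 4. It fell by 4.38 on the log2 scale in D146N after TMM (SE 0.10, edgeR adjusted p = 6.4e-27) and by 1.45 on library totals. In WT it rose by 3.25 after TMM (SE 0.10, adjusted p = 5.3e-24) and by 0.57 on library totals, the smaller difference that the CPM show.

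SNORD104, a guide inside the noncoding gene SNHG25, and the U14 gene SNORD14A, inside RPS13, had mean CPM with the high and low groups of SNORD46. In D146N the SNORD14A libraries of fractions 7 and 8 overlapped those of 3 and 4 in CPM, unlike those of SNORD46 and SNORD104. SNORD104 averaged 1.92 and 1.97 CPM in D146N fractions 7 and 8 against 4.45 and 4.36 CPM in D146N fractions 3 and 4, and 5.33 and 5.94 CPM in WT fractions 7 and 8 against 1.42 and 1.58 CPM in WT fractions 3 and 4. SNORD14A averaged 1.71 and 1.02 CPM in D146N fractions 7 and 8 against 2.84 and 2.29 CPM in D146N fractions 3 and 4, and 4.72 and 5.17 CPM in WT fractions 7 and 8 against 1.66 and 0.910 CPM in WT fractions 3 and 4. After TMM their changes were -4.09 and -3.86 in D146N and 4.57 and 4.68 in WT, and on library totals -1.17 and -0.94 in D146N and 1.90 and 2.0 in WT. SNORD58B, inside RPL17, and SNORD32A, inside RPL13A, also fell in D146N (-3.69 and -3.56) and rose in WT (3.86 and 3.95), with the same direction on library totals.

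Of the intron-encoded members on the side of SNORD3A in CPM, SNORD96A and SNORD49B were chosen for description after their values were seen. SNORD96A, inside RACK1, had 11.6, 11.7 and 11.2 CPM in D146N fraction 7 and 11.1, 10.8 and 9.26 CPM in D146N fraction 8, against 2.96, 2.09 and 2.14 CPM in D146N fraction 3 and 2.50, 1.72 and 2.03 CPM in D146N fraction 4. In WT it had 2.22, 2.2 and 2.23 CPM in fraction 7 and 2.63, 2.60 and 2.76 CPM in fraction 8, against 11.3, 11.9 and 13.6 CPM in fraction 3 and 14.4, 11.5 and 11.4 CPM in fraction 4. Its high and low groups were those of SNORD3A. Against the typical gene it stood at -0.64 in D146N (SE 0.12, edgeR adjusted p = 1.1e-05) and 0.34 in WT (SE 0.11, adjusted p = 0.0065), and at 2.28 in D146N and -2.35 in WT on library totals.

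SNORD49B, inside SNHG29, followed the same side but for 1 library. It averaged 9.08 and 8.5 CPM in D146N fractions 7 and 8 against 2.26 and 2.23 CPM in D146N fractions 3 and 4, while WT averaged 2.20 CPM in fraction 7 against 8.20 and 9.25 CPM in fractions 3 and 4. In WT fraction 8 it had 1.99, 2.06 and 15.8 CPM, the last in replicate 3. Its WT change after TMM was 1.41 (SE 0.32) with that library and 0.70 (SE 0.12) without it, called by edgeR in both fits (adjusted p = 0.00074 and 1.0e-06).

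Over the 23 members of at least 1 mean CPM, the 2 patterns can be counted without a test. In D146N, fractions 7 and 8 lay wholly above 3 and 4 for 10 members (92.3% of all genes) and wholly below for 5 members (3.27% of all genes). In WT they lay wholly below for 10 (84.4% of all genes) and wholly above for 9 (5.49% of all genes). The members that followed the typical gene in both genotypes were the 5 U3 genes, SNORD13, SNORD118, SNORD96A and SNORD36A. Those that went against it in both were SNORD17, SNORD46, SNORD32A, SNORD58B and SNORD104. Relative to SNORD3A, each of the other 22 was wholly lower in D146N fractions 7 and 8 (21.7% of genes lower and 28.9% higher) and wholly higher in WT fractions 7 and 8 (53.2% of genes higher and 5.95% lower).

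Of the 98 members, 85 passed the filter on low counts and were tested. In D146N, fractions 7 and 8 were called lower than 3 and 4 for 65 of the 85 (30.3% of the 18907 genes tested) and higher for 0 (29.9%) by edgeR after TMM at an adjusted p under 0.05. At an unadjusted p under 0.05 there were 68 lower and 0 higher, and DESeq2 called 68 lower and 0 higher. The median log2 fold change was -1.92 over the members and 0.10 over all genes tested. On library totals 43 were higher (88.9% of genes) and 14 lower (4.08%), and these 14 were called lower on both scales.

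In WT, 65 of 85 were called higher in fractions 7 and 8 (34.6% of genes tested) and 2 lower (39.3%), with a median of 1.91 against -0.18 over all genes. The 2 called lower were SNORD3A and SNORD38A, a guide for 28S ribosomal RNA, with -1.17 (SE 0.44, edgeR adjusted p = 0.016). On library totals 23 were higher (7.66%) and 39 lower (83.6%), and all 23 had been called higher after TMM. Without WT fraction 8 replicate 3, 90 members were tested, of which 66 were higher and 1 was lower. Set against the all-gene median, 83 of 85 were below it in D146N and 76 above it in WT on both scales. The members' median lay -2.02 (TMM) and -2.07 (library totals) from the all-gene median in D146N, and 2.09 from it on either scale in WT.

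**Figure D2:**
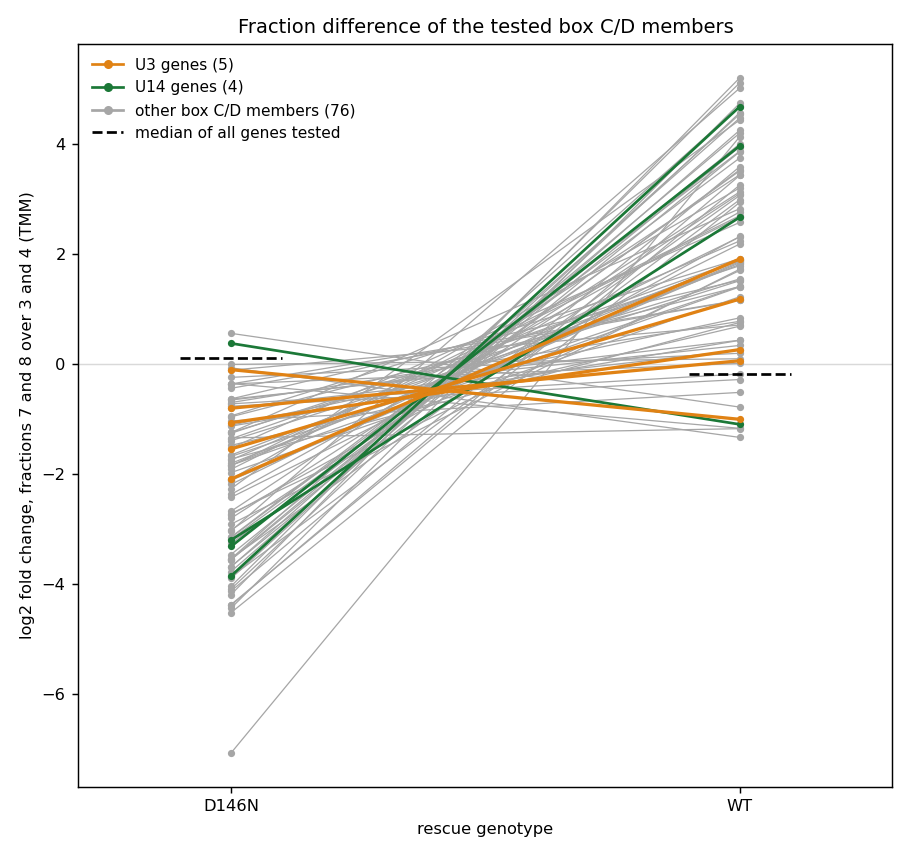
Log2 fold change of fractions 7 and 8 over fractions 3 and 4 after TMM (vertical) for each of the 85 tested members in D146N (left) and WT (right), joined by a line; U3 genes are orange, U14 genes green, the others grey, and dashed bars mark the median of all genes tested. Members lie mostly below the dashed bar at 0.10 in D146N and above that at -0.18 in WT, with SNORD3A at -0.10 and -1.01; the lowest D146N point is SNORD13E, which had 0 counts in D146N fractions 7 and 8.

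The difference of these contrasts (D146N minus WT) was called negative for 72 of 85 members (35.4% of genes tested) and positive for 1 (41.7%), which was SNORD3A at 0.90 (SE 0.10, edgeR adjusted p = 8.7e-10). The most negative members under the naming rule were SNORD46 at -9.40 (SE 0.20), SNORD104 at -8.66 (SE 0.21), SNORD14A at -8.54 (SE 0.24) and SNORD17 at -7.63 (SE 0.14). On library totals these 4 stayed negative at -3.79, -3.07, -2.94 and -2.02, while 46 members were positive (88.1% of genes) and 25 negative (6.41%). In all, 60 members were both lower in D146N fractions 7 and 8 and higher in WT fractions 7 and 8 after TMM (28.5% of genes tested).

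The U14 genes did not form a uniform group. U14 acts in processing of 18S ribosomal RNA and also guides its methylation. SNORD14A and SNORD14B, both inside RPS13, fell by 3.86 and 3.32 in D146N fractions 7 and 8 after TMM and rose by 4.68 and 3.97 in those of WT. SNORD14E, inside HSPA8, fell by 3.21 in D146N and rose by 2.67 in WT after TMM, but stood at -0.32 in D146N and -0.01 in WT on library totals. SNORD14D, also inside HSPA8, was not called in either genotype after TMM (0.37, SE 0.73, in D146N and -1.10, SE 0.76, in WT). On library totals SNORD14D was called higher in D146N (3.18, edgeR adjusted p = 4.5e-05) and lower in WT (-3.58, adjusted p = 1.1e-05), while SNORD14B was not called in D146N (-0.40, adjusted p = 0.07). The SNORD14D counts were 58.5 in D146N fractions 7 and 8 and 7.5 in D146N fractions 3 and 4, against 5.5 in WT fractions 7 and 8, with 57.5 in WT fractions 3 and 4.

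Some members lie in clusters. The SNHG1 cluster had 7 members, 5 of them tested. After TMM 4 fell in D146N fractions 7 and 8 (30.3% of all genes tested) and 3 rose in those of WT (34.6%). Over all tested members, 65 of 85 did so in each genotype, and whether the cluster differs from the rest was not tested. The 4 rows of the GAS5 cluster were at 0 in all libraries. The imprinted clusters of chromosomes 14 and 15, guides without known ribosomal targets that are expressed mainly in brain and placenta, had 2 of 40 and 3 of 88 rows above 0 and no member. Among the 13 members that were not tested, summed counts ran from 101.67 for SNORD58A to 167.23.

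The gap between members inside the same gene does not depend on the scaling factors. By annotated span, 90 of the 96 members with a position lie inside another gene, 71 of them inside a protein-coding one and 16 inside a long noncoding RNA gene. Strand was not in the annotation used, and counts of a row cannot tell the mature snoRNA from reads of the surrounding intron. Of the containing genes compared, 19 held at least 2 tested members, 45 in all. The median gap between the highest and lowest member of a gene was 1.84 log2 units in WT, and the gap passed 2 log2 units in 7 of the 19. These gaps are above 0 by construction and were not tested.

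Of these 19, HSPA8 had the widest gap in WT, 3.77 log2 units between its U14 members SNORD14E and SNORD14D, and the pairs that follow were chosen after their values were seen. Other genes with wide gaps were NOP58, with SNORD11B at 2.94 and SNORD70 at -0.28, and GNL3, with SNORD19C at 2.70 and SNORD69 at -0.52. At the other end, SNORD58C at 4.25 and SNORD58B at 3.86 inside RPL17 differed by 0.39, and SNORD15B at 1.84 and SNORD15A at 1.51 inside RPS3 differed by 0.33. The lowest members of the wide pairs had few counts. SNORD69 had 67.5 counts in D146N fractions 7 and 8 and 21.5 in D146N fractions 3 and 4, against 16.5 in WT fractions 7 and 8, with 105.5 in WT fractions 3 and 4.

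**Figure D3:**
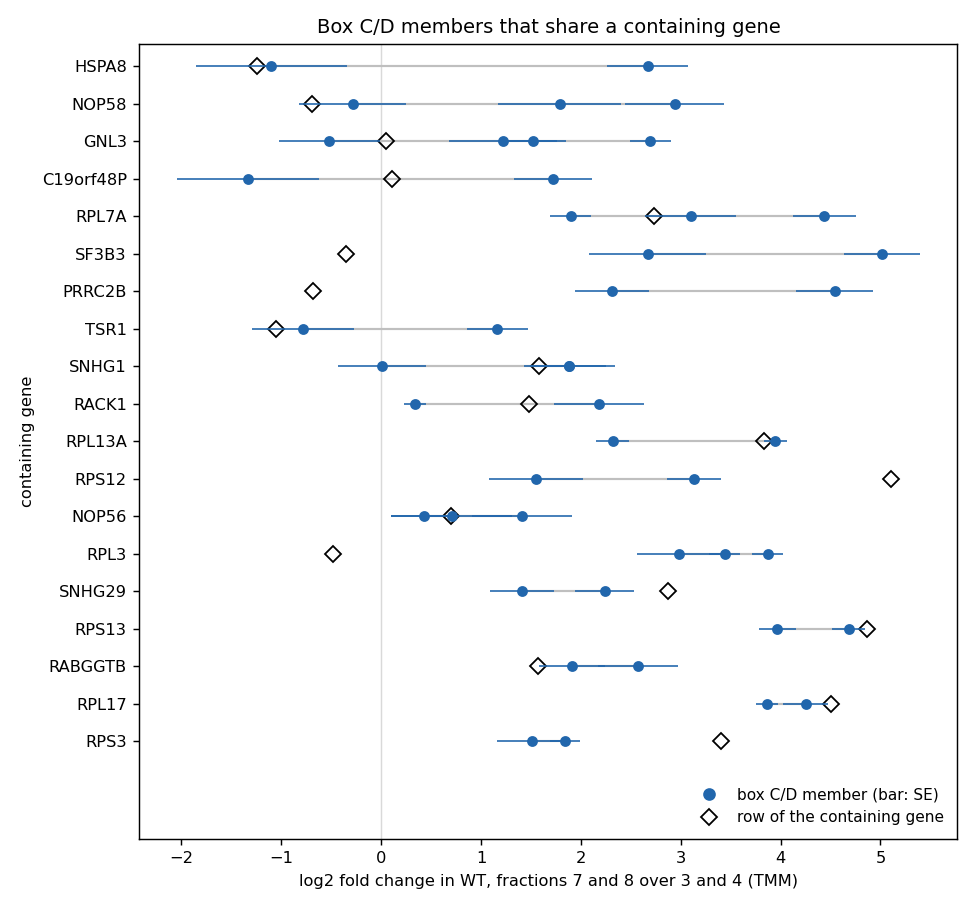
Log2 fold change in WT of fractions 7 and 8 over 3 and 4 after TMM (horizontal) for members that lie inside the same gene (rows, widest gap at the top); blue points are members with their standard errors and open diamonds the containing gene's own row. The HSPA8 members span 3.77 log2 units and the RPS3 members 0.33, and the 3 RPL3 members lie between 2.99 and 3.87 while the RPL3 row is at -0.48.

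Over all containing genes compared, members showed little relation to the row of the gene that contains them. For 74 members with both rows compared, the member's log2 change minus that of its containing gene had a median of -0.66 in D146N, with 24 within 1 log2 unit. In WT the median was 0.35, the range -4.06 to 5.88, and 28 were within 1. Spearman's rho between member and containing gene was 0.08 in D146N and 0.07 in WT over these 74 members, which share libraries and, in part, containing genes. Where the gene encodes a ribosomal protein (21 members of 12 genes), the median difference was 1.03 in D146N and -0.84 in WT. Members and containing genes there moved the same way in the median. The members stood at -2.68 and the genes at -3.81 in D146N, against 2.99 and 3.84 in WT.

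RPL3 and EEF2, chosen after their values were seen, are examples of genes whose row moved apart from their members. The RPL3 row was unlike the median of the ribosomal protein genes given above. SNORD43, a guide for 18S ribosomal RNA, changed by -3.15 in D146N and 3.87 in WT after TMM, and SNORD83A, in the same gene, by -2.68 in D146N and 3.44 in WT, while the RPL3 row stood at 0.52 in D146N and -0.48 in WT. SNORD37, inside EEF2, changed by -3.16 in D146N and 3.75 in WT while EEF2 stood at 1.06 in D146N and -1.55 in WT. RPS13 and RPL13A lay close to their members SNORD14A and SNORD32A in WT, where member minus containing gene was -0.18 and 0.11 on the log2 scale. Length of the member (rho -0.16, 83 members) and mean CPM (rho -0.002, 85 members) had little relation to the WT change. Fewer particles in a fraction and less RNA per particle cannot be told apart in these bulk libraries.

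Within a fraction, D146N against WT gave a picture that changed sides with the fraction. After TMM, D146N was higher for 50 members in fraction 3 (25.8% of genes tested) and 47 in fraction 4 (25.7%), with SNORD3A the only 1 lower in each (23.9% and 22.8%). It was lower for 64 members in fraction 7 (31.1%) and 69 in fraction 8 (32.6%), with SNORD3A the only 1 higher in each (32.4% and 32.5%). The medians over members were 1.75, 1.57, -2.32 and -2.51 in fractions 3, 4, 7 and 8. On library totals D146N was higher for 8, 8, 30 and 23 members in these fractions (3.91%, 3.78%, 83.6% and 80.9% of genes) and lower for 39, 43, 25 and 24 (84.7%, 84.3%, 5.41% and 6.08%).

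SNORD46 stood at 4.42 (SE 0.20) and 4.37 (SE 0.21) in fractions 3 and 4 and -5.13 (SE 0.20) and -4.88 (SE 0.19) in fractions 7 and 8. SNORD3A stood at -0.53, -0.48, 0.45 and 0.35 after TMM (SE 0.10 each), and at -3.30, -3.26, 3.40 and 3.06 on library totals. For DIS3 and for most members, D146N fractions 7 and 8 had levels close to those of WT fractions 3 and 4. A genotype effect within a fraction and a different correspondence of fraction numbers between the gradients of the genotypes cannot be told apart. D146N and WT were therefore also compared over the mean of all 4 fractions and between the groups that look alike. The contrast over the 4 fractions is, as built, the average of the contrasts between those groups, so these results are not independent.

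Over the mean of the 4 fractions, D146N was lower for 24 of 85 members (9.66% of genes tested) and higher for 0 (13.5%) by edgeR after TMM. At an unadjusted p under 0.05 there were 38 lower and 0 higher, and DESeq2 called 30 lower and 0 higher. The median was -0.38 over members and 0.01 over all genes, and all 24 were also called lower on library totals (7.44% of genes lower, 14% higher). Of the 85, 77 were below the all-gene median on both scales. Among the 23 members of at least 1 mean CPM, 13 were lower (12.1% of genes at that level). One of the 13, SNORD46 at -0.31, was not called without WT fraction 3 replicate 2 or without WT fraction 4 replicates 1 or 3 (-0.28 to -0.24).

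The named members here were SNORD100, a guide for 18S ribosomal RNA inside RPS12, at -0.99 (SE 0.21, edgeR adjusted p = 0.00044), SNORD19C, inside GNL3, at -0.84 (SE 0.15, adjusted p = 8.3e-05), SNORD15B, a guide for 28S ribosomal RNA inside RPS3, at -0.66 (SE 0.11, adjusted p = 2.4e-05), and SNORD118 at -0.63 (SE 0.09, adjusted p = 1.5e-06). SNORD100 averaged 0.461 and 1.04 CPM in D146N fractions 7 and 8 and 0.733 and 0.595 CPM in D146N fractions 3 and 4, against 1.6 and 1.49 CPM in WT fractions 7 and 8, with 1.03 and 1.23 CPM in WT fractions 3 and 4. SNORD13 was at -0.56 (SE 0.08), and of U3 the rows SNORD3B-1, SNORD3B-2, SNORD3C and SNORD3D were lower by 0.34 to 0.46 while SNORD3A was at -0.05 (adjusted p = 0.53). The smallest members had the largest values: SNORD13E, at -2.30 (SE 0.67), had 0 counts in D146N fractions 7 and 8 and 29 in D146N fractions 3 and 4, against 61 in WT fractions 7 and 8, with 18.5 in WT fractions 3 and 4.

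**Figure D4:**
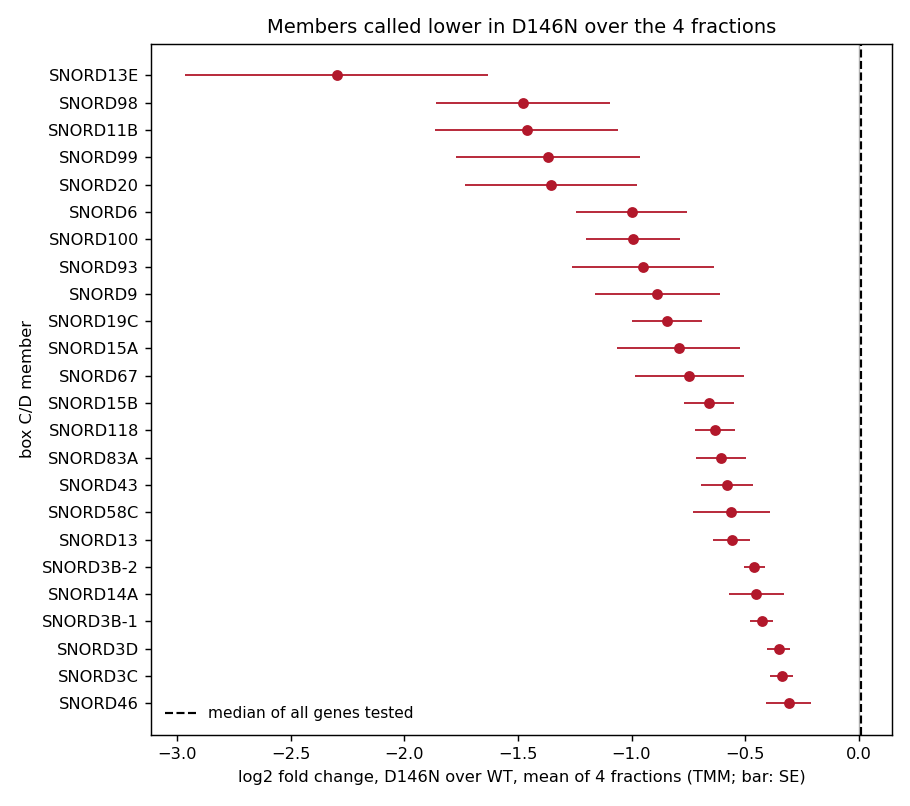
Log2 fold change of D146N over WT as the mean of the 4 fractions after TMM (horizontal) for the 24 members called lower (rows, most negative at the top), with standard errors as bars and the median of all genes tested as a dashed line. Values run from -2.30 for SNORD13E to -0.31 for SNORD46, and no member was called higher.

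Between the groups that look alike the differences were small. D146N fractions 7 and 8 against WT fractions 3 and 4 gave 16 members lower (10.4% of genes tested) and 1 higher (6.90%), with a median of -0.40 against 0.01 over all genes. All 5 U3 genes were lower, by 0.55 to 0.76 after TMM and by 0.40 to 0.61 on library totals, and SNORD118 (-0.99, SE 0.11) and SNORD13 (-0.78, SE 0.11) were lower too. The member called higher was SNORD24, a guide inside RPL7A, at 1.12 (SE 0.33, edgeR adjusted p = 0.015), with overlapping libraries, and it was not called without D146N fraction 7 replicate 3. On library totals 12 were lower (5.29%) and 1 higher (16.9%).

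D146N fractions 3 and 4 against WT fractions 7 and 8 gave 22 members lower (12.1% of genes tested) and 2 higher (17.1%), with a median of -0.42 against 0.01 over all genes. SNORD83A (-0.99, SE 0.15), SNORD43 (-0.94, SE 0.15), SNORD14A (-0.86, SE 0.14) and SNORD46 (-0.81, SE 0.12) were lower, and SNORD17 (0.62, SE 0.09) and SNORD3A (0.51, SE 0.07) were higher, with the same direction on library totals, where 25 were lower (15%) and 2 higher (12.0%). SNORD3A was thus lower in D146N in the first pair of groups and higher in the second. Only SNORD3B-1, SNORD3B-2, SNORD13 and SNORD15B were called lower in both. The share of all genes tested that was lower in both was not counted, so this number cannot be set against genes in general. SNORD15B averaged 4.08 and 3.86 CPM in D146N fractions 7 and 8, against 6.81 and 5.68 CPM in WT fractions 3 and 4, and 2.08 and 2.48 CPM in D146N fractions 3 and 4, against 3.38 and 3.54 CPM in WT fractions 7 and 8.

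Between fractions next to each other, few of the 23 members of at least 1 mean CPM had libraries that did not overlap, and the shares were near those of all genes at that level. There were 3 between D146N fractions 8 and 7 (11.2% of genes) and 1 between D146N fractions 4 and 3 (10.1%), with 3 between WT fractions 8 and 7 (11.6%) and 2 between WT fractions 4 and 3 (10.1%). In WT fraction 8, replicate 3 lay outside the other replicates for 18 of the 23 members (85.5% of genes of at least 1 mean CPM), against 16 for replicate 1 (55.9%) and 12 for replicate 2 (58.6%).

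Other guide RNAs of the libraries were counted beside them. Box H/ACA snoRNAs, which guide pseudouridylation, had 81 rows by the same rule, of which 75 were tested: 63 fell and 0 rose in D146N fractions 7 and 8 (30.3% and 29.9% of all genes tested), with a median of -2.99 against 0.10 over all genes, and 65 rose and 1 fell in WT fractions 7 and 8 (34.6% and 39.3%), with a median of 3.18 against -0.18, after TMM. On library totals 24 were lower and 19 higher in D146N (4.08% and 88.9%), and 35 higher and 16 lower in WT (7.66% and 83.6%). Over the mean of the 4 fractions 18 were lower in D146N (9.66%) and 1 higher (13.5%) after TMM, with a median of -0.40 against 0.01. Of 15 Cajal body RNAs tested, 11 fell and 4 rose in D146N fractions 7 and 8 (30.3% and 29.9% of all genes). In those of WT, 11 rose and 4 fell (34.6% and 39.3%), all after TMM. On library totals 9 rose and 3 fell in D146N (88.9% and 4.08%), and 4 rose and 9 fell in WT (7.66% and 83.6%). Whether box C/D members differ from these classes was not tested.

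The mRNAs for proteins of the box C/D particle moved in both directions. Of 24 genes for the core proteins, assembly, the U3 particle, cap and transport, and 3' trimming, 12 rose (29.9% of all genes tested) and 7 fell (30.3%) in D146N fractions 7 and 8, and 7 rose (34.6%) and 14 fell (39.3%) in those of WT after TMM. FBL was at 0.77 in D146N and -0.74 in WT (edgeR adjusted p = 0.024 and 0.023), and NOP58 at 0.25 and -0.70. NOP56, at -0.49 in D146N and 0.70 in WT, and SNU13, which binds the C and D boxes, at -1.68 in D146N and 2.47 in WT, had the signs of most members. On library totals all 4 were positive in D146N (1.25 to 3.69) and negative in WT (-0.22 to -3.39). Over the mean of the 4 fractions 3 of the 24 were higher (13.5% of genes) and 3 lower (9.66%) in D146N, and NOP56 was among the lower at -0.18 (SE 0.04, adjusted p = 0.00065).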

How the data were processed

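The authors deposited 1 table of expected counts per gene, not normalized, for 24 libraries, in versioned Ensembl rows. Within 0.005, 73.3% of values above 0 were whole, and the deposited counts were rounded before fitting. Tools named in the submitters' processing notes were featureCounts 1.5.1, HISAT2 2.1.0, Bowtie2 2.3.5 and SAMtools, with the build hg38; their roles, strand, filters and the handling of reads with several matches are not given in the sources used here. Libraries were ribosomal RNA depleted with KAPA RiboErase and made with KAPA RNA HyperPrep, per the labels' protocols. How well such libraries hold RNAs as short as 48 bases, the shortest member, was not tested.

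Groups followed the sample titles. Symbols were assigned to 99.9% of rows. Positions and containing genes came from RefSeq on GRCh38.p14, and all 98 members had an entry; the 2 SNORD22 rows share 1 and were given no position. One containing gene is not reported here, and its members were left out of comparisons with or within containing genes. The tests had been planned for whole counts. edgeR 4.0.16 in R 4.3.3 fitted 8 group means to all 24 libraries with TMM factors, its filter on low counts by group and a robust quasi-likelihood test, with Benjamini-Hochberg adjustment over 18907 genes. Standard errors given with edgeR values were derived as the absolute log2 fold change divided by the square root of the test's F statistic. The biological coefficient of variation was 13.8%. Totals of 21.2 to 33 M counts give counting precision only. The method was tested on simulated data. Shares were tested by exact permutation, two-sided. Replicate numbers were not treated as pairs in the main tests.

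Named members were U3, SNORD118, SNORD13 and U14, the 8 with the highest mean CPM, and called members of at least 1 mean CPM whose libraries did not overlap after TMM, ranked by fold change: up to 6 each way for the fraction contrasts within a genotype and up to 4 each way for the others. For the interaction and the mean of the fractions, overlap was judged on values that joined libraries of the same replicate number. Others are named as examples of families, shared genes or counts, chosen after their values were seen. The members, lists and tests were chosen with earlier results of these data known. Alternatives were library totals, median-of-ratios factors, no filter, DESeq2 1.42.0, unrounded values, a replicate block and leaving out each library. One member, SNORD60, shares its counts with an unnamed row.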

Additional observations from a re-analysis of the deposited data

Results flagged for a closer look

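For 5 members flagged here, the change between fractions in D146N differed from that in WT by the interaction test in edgeR: SNORD3A by 0.90 on the log2 scale after TMM, SNORD46 by -9.40, SNORD104 by -8.66, SNORD14A by -8.54 and SNORD17 by -7.63. Their changes, formed from libraries of the same replicate number, did not overlap between the genotypes. SNORD3A is the 1 member of the 85 tested whose difference was positive and called. The other members flagged here, SNORD46, SNORD104, SNORD14A and SNORD17, have the opposite sign. On library totals SNORD3A stood at 6.51, SNORD46 at -3.79, SNORD104 at -3.07, SNORD14A at -2.94 and SNORD17 at -2.02, so these 5 kept their signs. TMM factors move with the same groups, averaging 2.81 in D146N fraction 7 and 0.366 in D146N fraction 3, against 0.365 in WT fraction 7 and 2.51 in WT fraction 3; their part in the result was not tested.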

How the results depend on the processing

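The choice between TMM and library totals was the one setting that moved counts of called members by more than 1.5 times, apart from leaving out libraries. On library totals D146N was higher for 8 and lower for 39 members in fraction 3, 8 and 43 in fraction 4, 30 and 25 in fraction 7, and 23 and 24 in fraction 8. Fractions 7 and 8 were higher for 43 and lower for 14 members in D146N, and higher for 23 and lower for 39 in WT, and the interaction was positive for 46 and negative for 25. Named members whose sign turned on library totals were, in D146N, SNORD118 (1.79), SNORD13 (1.08), SNORD3A (2.82), SNORD3B-1 (1.38), SNORD3B-2 (0.83), SNORD3C (2.12) and SNORD3D (1.86), and in WT SNORD118 (-2.25), SNORD13 (-1.30), SNORD14E (-0.011), SNORD3B-1 (-1.51), SNORD3B-2 (-0.78), SNORD3C (-2.62) and SNORD3D (-2.42). Median-of-ratios factors, no filter, DESeq2, unrounded values and the replicate block kept all 20 counts within 1.5 times. Leaving out 1 library, when 89 to 94 members passed the filter, gave 48 to 56 higher and 1 lower in fraction 3, 45 to 53 and 1 to 2 in fraction 4, 1 to 2 higher and 67 to 72 lower in fraction 7, 1 higher and 64 to 77 lower in fraction 8, and 0 higher and 21 to 26 lower over the mean of the fractions. For fractions 7 and 8 against 3 and 4 it gave 0 higher and 65 to 73 lower in D146N, 65 to 72 higher and 1 to 3 lower in WT, and 1 to 2 positive and 73 to 79 negative for the interaction. The matched groups gave 0 to 1 higher and 12 to 16 lower, and 2 higher and 17 to 24 lower. The fraction 7 count of 2 came without WT fraction 7 replicate 2, the count of 1 lower in WT without WT fraction 8 replicate 3, and the count of 0 without D146N fraction 7 replicate 3. Correlations of deviations were -0.013 to 0.031 for same-numbered libraries and -0.0295 to 0.0158 for differently numbered ones. They compared fractions 3 and 4 with 7 and 8, and the genotypes within a fraction. Pairing of neighbouring fractions by replicate number was not tested. The replicate block gave 0 higher and 64 lower in D146N and 64 higher and 2 lower in WT for fractions 7 and 8 against 3 and 4. Without a filter SNORD118 lost its call in WT (0.26). SNORD46 over the mean of the fractions lost its call without WT fraction 3 replicate 2 and without WT fraction 4 replicates 1 or 3 (-0.28 to -0.24), and SNORD14E gained one in DESeq2 (-0.78). The causes were not tested.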
